A study of Mus musculus with 66 samples.

Results

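A set of 10 genes of the machinery that carries RNA polymerase II (PolII) through genes was followed by name: Cdk9, Ccnt1, Ccnt2, Hexim1, Supt5h, Supt6h, Supt16h, Ssrp1, Cdk12 and Tcea1. All 10 had polyA (pA) sites among the 15856 genes of the 3'READS table, and 2 of them, Ccnt1 and Ccnt2, were among the 9999 genes of the RNA-seq table. The other 8 were not analysed here in RNA-seq. The libraries came from C2C12 cells, a mouse myoblast line, grown as myoblasts and transfected for 48 h with siRNA at 50 nM, either a control (siCtrl) or one that targets a subunit of the PolII-associated Paf1 complex (Paf1C), namely Paf1 (siPaf1), Cdc73 (siCdc73) or Ski8 (siSki8). Each assay had 2 libraries (batch 1 and batch 2) for siCtrl, siPaf1 and siCdc73, and 1 library, of batch 2, for siSki8. RNA-seq counted reads in coding regions, and 3'READS counted reads that end in a poly(A) tail at each pA site (PASS reads). The labels do not say whether the libraries of a group came from separate cultures, so p-values measure the spread between libraries, which may be technical. Where batch is a term of the fit, this is only the spread left after a batch difference common to all groups.

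After promoter escape PolII pauses, and release into productive elongation needs P-TEFb, the kinase Cdk9 with cyclin T1 (Ccnt1) or T2 (Ccnt2), which phosphorylates the PolII tail, DSIF and NELF. Hexim1, together with the 7SK snRNA, holds P-TEFb inactive. Supt5h is the large subunit of DSIF, Supt6h and FACT (Supt16h with Ssrp1) are histone chaperones that travel with PolII, Cdk12 is a further kinase of the PolII tail, and Tcea1 (TFIIS) lets arrested PolII cleave its transcript and resume. Paf1C acts alongside these factors on the elongating polymerase.

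The 10 genes held 44 sense-strand pA sites, 30 in the 3'-most exon, 13 in introns and 1 in an internal exon, and a further 6 upstream antisense sites with 3 to 86 reads in all libraries together, which were not tested. The 30 bases that end at a pA site are shown for the sites on which the results turn. Sequences are of the mm9 build, in the sense of the mRNA from 5′ to 3′, with capitals for the last AATAAA in the window or, where there is none, the last ATTAAA, the 2 commonest forms of the polyadenylation signal. Each entry gives the gene, its site and the window with its strand.
Hexim1, main site, chr11:102979662-102979691 on the plus strand: ttatAATAAAtttaatgtttgtaaatgtaa
Cdk9, its 1 site, chr2:32562958-32562987 on the minus strand: ATTAAAagttggttatttttttccagtaaa
Ccnt1, intron 3, most used site, chr15:98390973-98391002 on the minus strand: tcagaccgtgcgtgttgactgtcccccttt
Ccnt1, intron 6, chr15:98381564-98381593 on the minus strand: ATTAAAggaaaccccagtggtgacatagaa
Ccnt2, proximal, chr1:129702318-129702347 on the plus strand: gggAATAAAggtaattttgttgaatcttca
Ccnt2, middle, chr1:129702481-129702510 on the plus strand: tttATTAAAaggcagtcagtgtgattttta
Ccnt2, distal, chr1:129704609-129704638 on the plus strand: attAATAAAgtttgtttattgacaaccaaa
Supt6h, main site, chr11:78020526-78020555 on the minus strand: gtcatttgAATAAAcagtgtttgtacagag
Cdk12, proximal, chr11:98112333-98112362 on the plus strand: tccaAATAAAtcatccttatgtttgctcaa
Cdk12, distal, chr11:98114823-98114852 on the plus strand: ttggaaaATTAAAtatttcctgttaatata

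Of the 30 sites of these genes in 3'-most exons, 13 (43.3%) held AATAAA and 4 (13.3%) held ATTAAA without it, where the shares among all 38550 such sites of the table were 39.6% and 14.04%. Among the 13 intronic sites, 2 (15.4%) held AATAAA and 4 (30.8%) ATTAAA, beside 41.2% and 14.4% of all 16766 intronic sites. Only the strand of the transcript was searched, and a match is a description of these letters, not of use. The window of the most used Ccnt1 site held neither hexamer, as did 44.4% of all intronic windows.

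Library totals ran from 2796693 to 8160386 reads in RNA-seq and from 5302728 to 14340927 in 3'READS, and intervals or tests on such reads cover counting and library spread only. Each siRNA target was lower than siCtrl within the batches of its own knockdown, with log2 differences in RNA-seq of -2.38 and -2.35 for Paf1, -2.91 and -2.14 for Cdc73, and -4.36 for Wdr61, the gene of Ski8, in its 1 library. The siPaf1 library of batch 2 stood apart in 3'READS, with 271 genes of at least 30 reads more than 20-fold above every other library (1.03% of its reads, against 0 genes in each of the others), so 3'READS calls of siPaf1 are also given without it. The myoblast genes Des, Cdh15 and Myf5 were read in every library, but Myod1, a defining myoblast gene, had at most 0.598 CPM in 3'READS and was not analysed here in RNA-seq. Of the 5 markers of blood, endothelial, epithelial and fat cells, 3 were listed in RNA-seq and 4 in 3'READS, and none was above 1.303 CPM. CPM are read counts scaled to library size with TMM factors, or without these factors for genes under the filter on low counts, such as Myod1 and most of these markers. In 3'READS, 9 of 10 proliferation markers fell after siPaf1 and 8 of 10 after siCdc73 in the fit with batch, with median log2 changes of -1.91 and -1.58, while of 5 differentiation genes 2 rose after siPaf1 and 3 fell after siCdc73. Without the siPaf1 library of batch 2, 8 of 10 proliferation markers (median -2.08) were called lower and 2 of 5 differentiation genes higher after siPaf1. Their part in the results here was not tested. In bulk libraries, a lower share of a cell state and less RNA per cell cannot be told apart.

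Fits were of 2 kinds, both with edgeR's quasi-likelihood test, one on groups alone and one with the batch as a term. In the fit on groups alone no gene of either assay passed an adjusted p of 0.05 in any comparison (0% of 6521 genes in RNA-seq and of 12579 in 3'READS), although 1156 and 1377 genes of RNA-seq and 1703 and 1929 of 3'READS had an unadjusted p under 0.05 after siPaf1 and siCdc73, 361 and 419 of the 2 assays in siSki8, and 859 and 1298 for siPaf1 against siCdc73. With no change, a share of 0.05 of genes is expected to have such a p. The 2 siSki8 counts lie near or below that share. DESeq2 without the batch also called 0 members. In simulated data with a batch difference common to all groups, the fit on groups alone recovered 0 of 200 planted changes. Its 0 calls therefore do not show absence of change. Every call below comes from the fit with batch, which was not the planned primary test. In that fit the biological coefficient of variation fell from 0.397 to 0.179 in RNA-seq and from 0.515 to 0.247 in 3'READS. Fold changes are on the log2 scale with their standard error (SE).

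**Figure D1:**
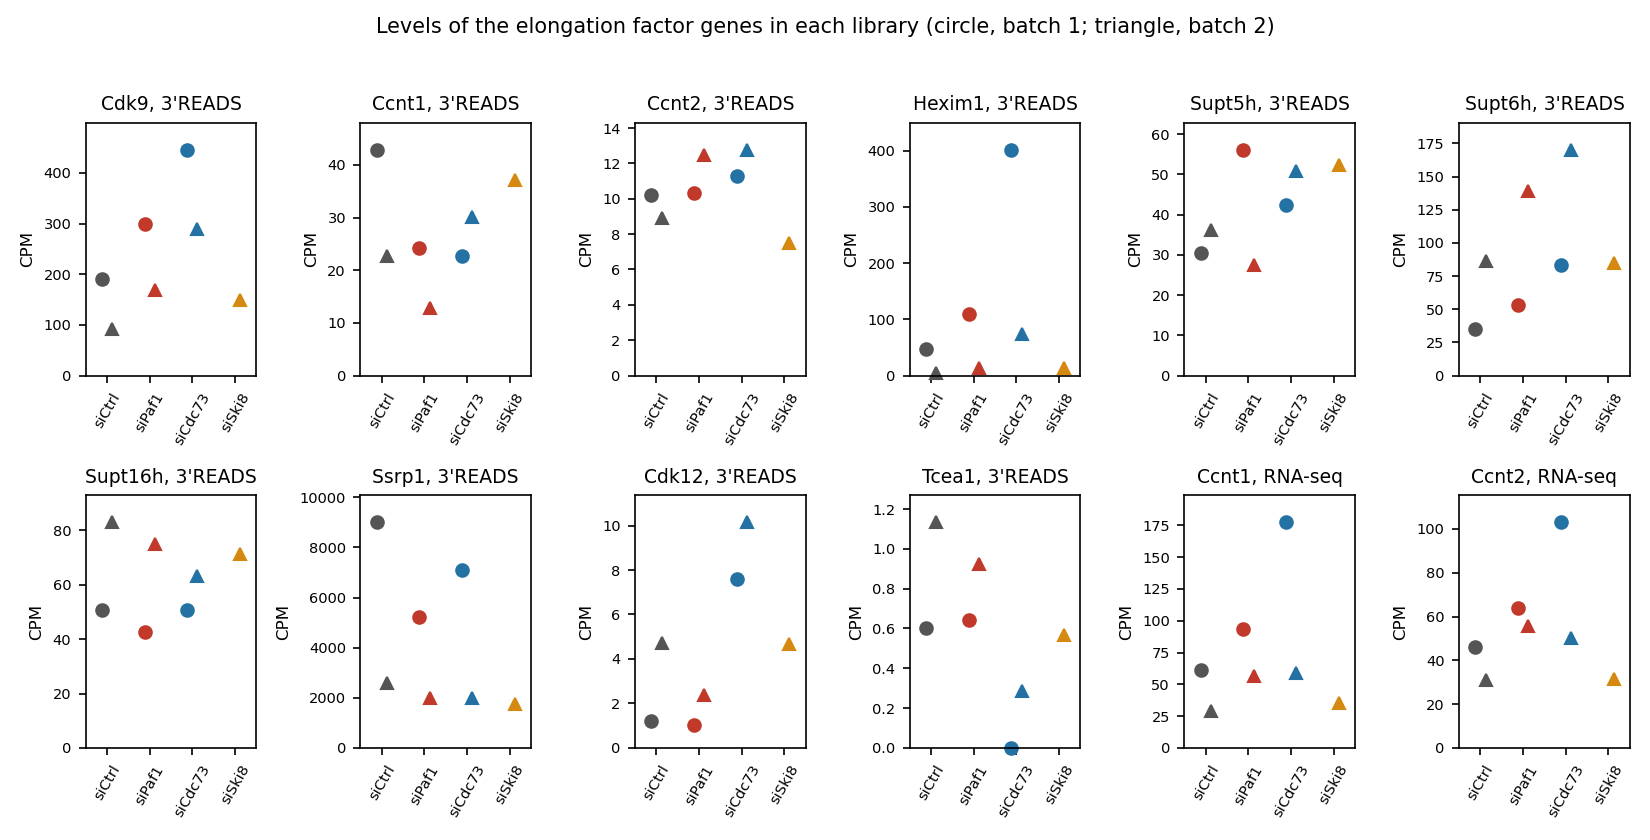
Level of each elongation factor gene in every library, in CPM on a linear axis that starts at 0, for 3'READS and, in the last 2 panels, RNA-seq. Circles are batch 1 and triangles batch 2, and for Hexim1 the batch 1 library lies far above the batch 2 library of the same siRNA in each replicated group.

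The inhibitor Hexim1 (chr11:102977639-102981039, plus strand, a single exon) changed most. Its PASS reads, with batch 1 before batch 2 here and throughout, were 320 and 39 in siCtrl, 842 and 215 in siPaf1, 1850 and 1030 in siCdc73 and 111 in siSki8. As CPM these were 48.0 and 3.69 in siCtrl, 108.7 and 14.2 in siPaf1, 402 and 73.1 in siCdc73, and 12.6 in siSki8. Within each batch the order was siCtrl lowest, siPaf1 above it and siCdc73 highest, but the siCtrl libraries themselves differed 13.0-fold between batches, so the siPaf1 and siCtrl libraries overlapped while both siCdc73 libraries lay above both siCtrl libraries.

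Hexim1 rose after siCdc73 by 3.58 (SE 0.34, edgeR adjusted p = 1.36e-05), 12.0-fold, and by 3.06 and 4.23 in the single batches. It rose after siPaf1 by 1.45 (SE 0.32, edgeR adjusted p = 0.00523), 2.73-fold, by 1.18 and 1.89 within batches, and by 1.42 (edgeR adjusted p = 0.000217) when the siPaf1 library of batch 2 was left out. The siPaf1 call was lost when the siCtrl library of batch 2 was left out (1.06, edgeR adjusted p = 0.133), whereas the siCdc73 call held in each of the 6 fits that left out 1 library. Tested directly, siPaf1 lay below siCdc73 by 2.13 (log2 difference -2.13, SE 0.31, edgeR adjusted p = 0.00051), and the difference was -2.14 (edgeR adjusted p = 3.2e-07) without the siPaf1 library of batch 2. In the siSki8 library the value was 1.30 (SE 0.43, edgeR adjusted p = 0.229), which did not pass, and with the siPaf1 library of batch 1, the siPaf1 library of batch 2 or the siCdc73 library of batch 1 left out it passed (edgeR adjusted p = 0.0238, 0.023 and 0.0455).

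Hexim1 transcripts ended mostly at 1 of 4 sites, 388 nt past the end of its coding sequence, whose AATAAA begins 26 nt before the end of the window. This site took 97.5% and 56.4% of the reads of the gene in siCtrl, 97.3% and 87.4% in siPaf1, 98.6% and 91.5% in siCdc73 and 89.2% in siSki8. The low value was the siCtrl library of batch 2, which rests on 22 of 39 reads. The second most used site, 576 nt past the coding sequence, took 0.919% to 20.5% and gave -0.89 after siPaf1 (SE 0.73, edgeR adjusted p = 0.672) and -1.83 after siCdc73 (SE 0.72, edgeR adjusted p = 0.225). The share of the main site against the other Hexim1 sites did not pass after siCdc73 (log2 change 2.09, SE 0.68, edgeR adjusted p = 0.0835) or after siPaf1 (1.22, SE 0.70, edgeR adjusted p = 0.399), and the former passed without the siCtrl library of batch 1 (3.13, edgeR adjusted p = 0.035) or without either siPaf1 library (2.12, edgeR adjusted p = 0.0363 and 0.0252).

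Cdk9 (chr2:32561304-32568596, minus strand), the kinase of P-TEFb, ended at 1 site in its last exon, exon 7 of 7, with 14527 reads in all. Its level was 190.4 and 91.4 CPM in siCtrl, 299 and 168 in siPaf1, 446 and 289 in siCdc73 and 149 in siSki8. Both siCdc73 libraries lay above both siCtrl libraries, and the siPaf1 library of batch 2 lay below the siCtrl library of batch 1. Cdk9 rose after siCdc73 by 1.44 (SE 0.27, edgeR adjusted p = 0.00165), 2.72-fold, and the call held in each of the 6 fits without 1 library. After siPaf1 the value was 0.76 (SE 0.27, edgeR adjusted p = 0.0585), with 0.65 in batch 1 and 0.88 in batch 2, and did not pass, although it did with scaling by library size alone (0.86, edgeR adjusted p = 0.0336) and by DESeq2 with batch (0.79, adjusted p = 0.0113). In siSki8 it was 0.59 (SE 0.34, edgeR adjusted p = 0.56). The difference of siPaf1 from siCdc73 was -0.68 (SE 0.27, edgeR adjusted p = 0.0999), which passed by DESeq2 with batch (-0.68, adjusted p = 0.0353).

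The cyclins were the genes measured by both assays. Ccnt1 (chr15:98369120-98401354, minus strand) had 440 and 173 coding reads in RNA-seq of siCtrl, 653 and 163 in siPaf1, 1147 and 185 in siCdc73 and 242 in siSki8, or 61.5 and 29.1, 93.9 and 56.9, 178 and 59.0, and 35.2 CPM. Each siPaf1 and siCdc73 library lay above the siCtrl library of its own batch, and batch 2 of both knockdowns lay below siCtrl of batch 1.

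Ccnt1 coding reads rose after siCdc73 by 1.30 (SE 0.26, edgeR adjusted p = 0.000178), 2.46-fold, and after siPaf1 by 0.78 (SE 0.26, edgeR adjusted p = 0.0195), 1.72-fold. The siCdc73 call was lost without the siCdc73 library of batch 1 (0.94, edgeR adjusted p = 0.0658). The siPaf1 call was lost without either siCtrl library (0.76 and 0.82, edgeR adjusted p = 0.144 and 0.126) and without the siPaf1 library of batch 2 (0.49, edgeR adjusted p = 0.159). In siSki8 the value was 0.30 (SE 0.33, edgeR adjusted p = 0.643).

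Ccnt2 (chr1:129670741-129704638, plus strand), the alternative cyclin, had 45.98 and 30.9 CPM in RNA-seq of siCtrl, 64.0 and 55.8 in siPaf1, 103.1 and 50.4 in siCdc73 and 31.3 in siSki8. All 4 siPaf1 and siCdc73 libraries lay above both siCtrl libraries. Ccnt2 rose after siCdc73 by 0.96 (SE 0.26, edgeR adjusted p = 0.00427), 1.94-fold, a call lost without the siCtrl or the siCdc73 library of batch 1 (0.96 and 0.62, edgeR adjusted p = 0.0578 and 0.265). After siPaf1 the value was 0.66 (SE 0.26, edgeR adjusted p = 0.0529) and did not pass, and by library size alone or with no filter on low counts it passed (edgeR adjusted p = 0.0451 and 0.0459), as it did without the siPaf1 library of batch 1 (0.98, edgeR adjusted p = 0.00518). In siSki8 it was 0.03 (SE 0.34, edgeR adjusted p = 0.975). Per length, the RPKM that the authors deposited ran from 5.09 to 30.6 for Ccnt1 and from 4.52 to 17.8 for Ccnt2.

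In RNA-seq, 1 of the 2 cyclins was thus called higher after siPaf1 and both after siCdc73, where 16.3% and 19.4% of all genes tested were called higher, and neither was called after siSki8, where 5.43% of genes were called. For siPaf1 against siCdc73, with 28.2% of genes called, Ccnt1 gave -0.52 (SE 0.26, edgeR adjusted p = 0.129) and Ccnt2 -0.30 (SE 0.26, edgeR adjusted p = 0.417), and leaving out the siPaf1 library of batch 2 took Ccnt1 past the threshold (-0.81, edgeR adjusted p = 0.0143). Across the 14 libraries of both assays, with log2 CPM centred within each assay, the gene whose level followed Ccnt1 most closely was Dip2b (r = 0.883) and that for Ccnt2 was Dlc1 (r = 0.911), of 3857 genes compared. The points of each assay share batches, and those of Ccnt1 in 3'READS count intronic ends only. These values are descriptions.

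**Figure D2:**
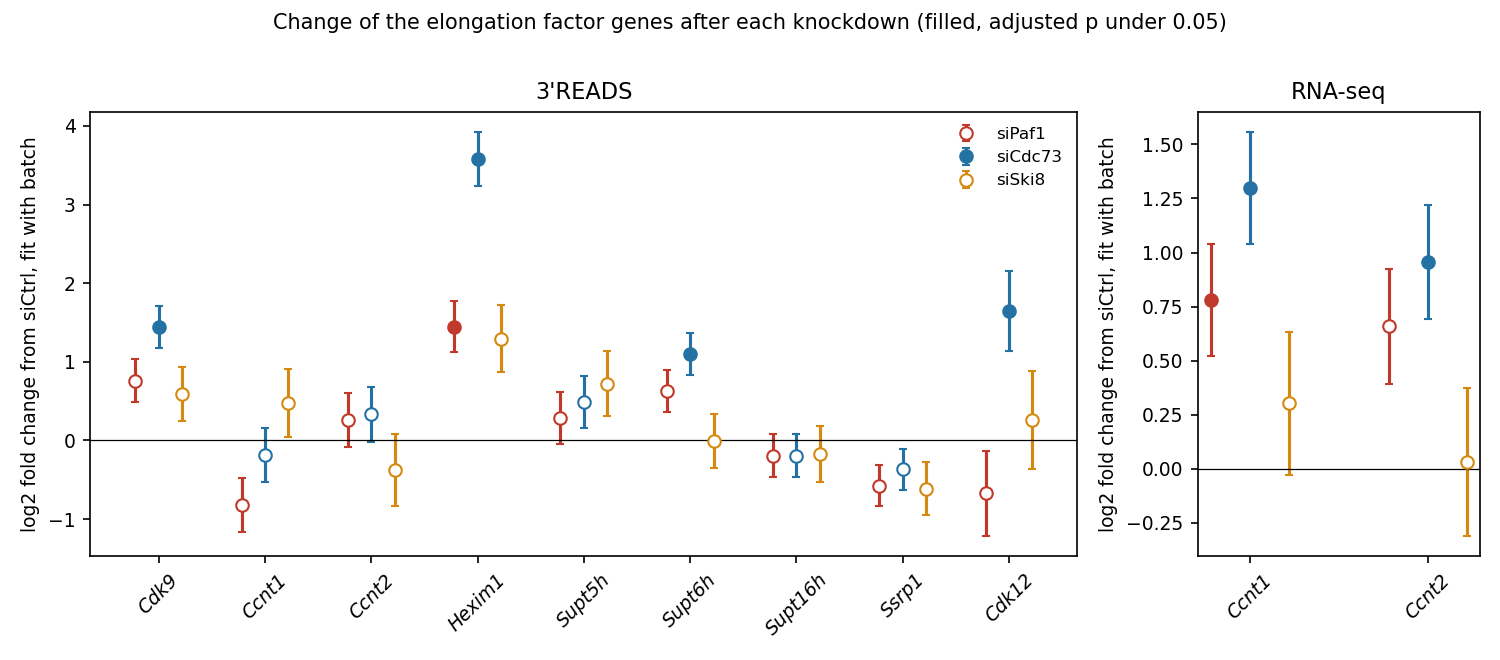
Log2 fold change of each gene from siCtrl in the fit with batch, with bars of 1 SE, for siPaf1, siCdc73 and siSki8 in 3'READS (left) and RNA-seq (right), and filled points where the adjusted p was under 0.05. Hexim1 after siCdc73 stands highest at 3.58, and no siSki8 point is filled. Tcea1, with 44 reads in all, is not drawn.

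The 3'READS sums of the cyclins gave another picture for Ccnt1. The 4 sense sites analysed for this gene were all intronic, in introns 3, 4 and 6 of a 10-exon transcript, and sites in its last exon were not analysed here, so its 3'READS level counts transcripts that end early. Those levels were 42.9 and 22.7 CPM in siCtrl, 24.3 and 12.8 in siPaf1, 22.8 and 30.1 in siCdc73 and 37.1 in siSki8. Within each batch siPaf1 lay below siCtrl, and siCdc73 lay below it in batch 1 and above it in batch 2.

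After siPaf1 the intronic sum of Ccnt1 changed by -0.82 (SE 0.34, edgeR adjusted p = 0.101) and after siCdc73 by -0.18 (SE 0.34, edgeR adjusted p = 0.753), and neither passed, while the coding reads of the same gene were called higher in RNA-seq. The former passed with no filter on low counts (-0.83, edgeR adjusted p = 0.0457), without the siPaf1 library of batch 1 (-1.17, edgeR adjusted p = 0.0123) or without either siCdc73 library (-0.82, edgeR adjusted p = 0.048 and 0.0467). For siPaf1 against siCdc73 it gave -0.64 (SE 0.34, edgeR adjusted p = 0.224), which passed without the siPaf1 or the siCdc73 library of batch 1 (-0.95 and -1.23, edgeR adjusted p = 0.0429 and 0.0319). The difference between the assays itself was not tested. Ccnt2, whose 6 sites all lie in its last exon, had only 729 reads in 3'READS and levels of 7.51 to 12.8 CPM. Its values were 0.26 after siPaf1 (SE 0.34, edgeR adjusted p = 0.634) and 0.33 after siCdc73 (SE 0.35, edgeR adjusted p = 0.526).

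Calls of site use within Ccnt1 came at its intron 6 site and its most used site, in the fit with batch only. The intron 6 site, 19790 nt from the transcription start, lies beyond 496 coding bases (22.8% of the coding sequence), and its ATTAAA opens the printed window. It held 8 of 286 and 2 of 240 reads in siCtrl (2.80% and 0.833%), 17 of 188 and 45 of 193 in siPaf1 (9.04% and 23.3%), 28 of 105 and 88 of 424 in siCdc73 (26.7% and 20.8%) and 6 of 326 in siSki8 (1.84%). All 4 siPaf1 and siCdc73 libraries lay above the siCtrl and siSki8 libraries.

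Relative to the other Ccnt1 sites, use of the intron 6 site rose after siPaf1 by 2.87 (SE 0.84, edgeR adjusted p = 0.0164) and after siCdc73 by 3.57 (SE 0.83, edgeR adjusted p = 0.00239), and in siSki8 it gave -0.13 (SE 1.22, edgeR adjusted p = 1). Without the siCtrl library of batch 2 both calls were lost (2.18 and 2.88, edgeR adjusted p = 0.406 and 0.132), and the siPaf1 call was also lost without the siPaf1 library of batch 2 (1.77, edgeR adjusted p = 0.42). The most used site, in intron 3 and 10381 nt from the start, fell from 95.1% and 88.3% of reads in siCtrl to 65.7% and 68.6% in siCdc73 (log2 change -2.40, SE 0.71, edgeR adjusted p = 0.0324), with 89.4% and 64.2% in siPaf1 (-1.61, SE 0.72, edgeR adjusted p = 0.19) and 86.8% in siSki8. That siCdc73 call was lost in 3 of the 6 fits without 1 library, with values from -3.44 to -1.51 over the 6 and the highest edgeR adjusted p at 0.44. A further intron 3 site, 10352 nt from the start, took 1.596% to 12.4% and gave 0.18 after siPaf1 (SE 0.82, edgeR adjusted p = 0.981) and 0.17 after siCdc73 (SE 0.82, edgeR adjusted p = 0.981).

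**Figure D3:**
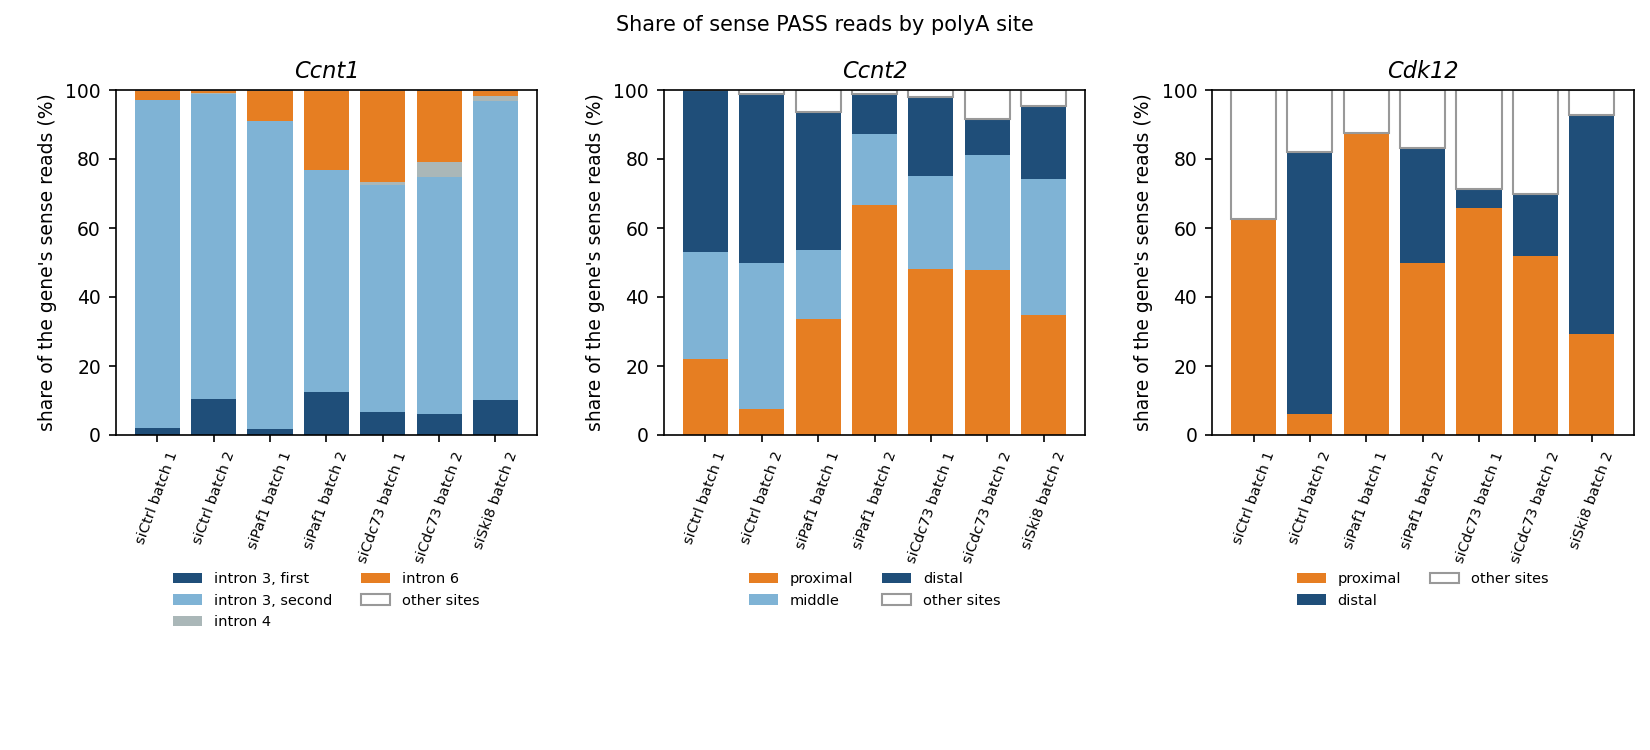
Share of the sense PASS reads of Ccnt1, Ccnt2 and Cdk12 at each of their main pA sites, in percent, with 1 bar per library. The intron 6 site of Ccnt1 takes 9.04% to 26.7% in siPaf1 and siCdc73 and 0.833% to 2.80% in siCtrl and siSki8, and the Cdk12 bars of siCtrl and siPaf1 in batch 1 rest on 8 reads each.

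Ccnt2 has 3 main sites in exon 9 of 9, at 2214, 2377 and 4505 nt past the end of the coding sequence. The proximal site held 22.1% and 7.45% of the reads in siCtrl, 33.8% and 66.7% in siPaf1, 48.1% and 47.8% in siCdc73 and 34.8% in siSki8. The distal site held 47.1% and 48.9% in siCtrl, 40.0% and 11.6% in siPaf1, 23.1% and 10.6% in siCdc73 and 21.2% in siSki8. Every knockdown library thus lay above both siCtrl libraries at the proximal site and below them at the distal site. None of these shifts passed the test. In the comparison of the proximal with the middle site, the 2 sites with most reads, the value was 2.53 after siPaf1 (SE 0.94, edgeR adjusted p = 0.0544) and 1.94 after siCdc73 (SE 0.93, edgeR adjusted p = 0.23).

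The siPaf1 value of Ccnt2 moved with the library left out. Without the siPaf1 library of batch 2, the one that stood apart in 3'READS, it was 1.53 (edgeR adjusted p = 0.771), and without that of batch 1 it was 3.42 (edgeR adjusted p = 0.0212). Against all other reads of the gene, the proximal site gave 2.53 after siPaf1 (SE 0.92, edgeR adjusted p = 0.0774) and 2.33 after siCdc73 (SE 0.92, edgeR adjusted p = 0.112), and the distal site -1.60 (SE 0.84, edgeR adjusted p = 0.293) and -2.19 (SE 0.86, edgeR adjusted p = 0.124). The proximal site passed after siPaf1 without the siCtrl or the siPaf1 library of batch 1 (edgeR adjusted p = 0.033 and 0.0077), and after siCdc73 without either siPaf1 library (edgeR adjusted p = 0.0386 and 0.041).

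Supt5h (chr7:29099917-29123738, minus strand), which carries DSIF onto PolII, was read at 30.5 and 36.1 CPM in siCtrl, 56.1 and 27.6 in siPaf1, 42.3 and 50.8 in siCdc73 and 52.3 in siSki8, all at 1 site. The siCdc73 and siSki8 libraries lay above both siCtrl libraries and the siPaf1 libraries lay on both sides of them. No comparison passed, with 0.28 (SE 0.33, edgeR adjusted p = 0.587) after siPaf1, 0.49 (SE 0.33, edgeR adjusted p = 0.313) after siCdc73 and 0.72 (SE 0.41, edgeR adjusted p = 0.54) in siSki8. The siPaf1 value was 0.88 without the siPaf1 library of batch 2, the one that stood apart.

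Supt6h (chr11:78020248-78059489, minus strand), the histone chaperone Spt6, was read at 35.4 and 86.6 CPM in siCtrl, 52.9 and 139 in siPaf1, 83.2 and 170.2 in siCdc73 and 84.7 in siSki8. Here batch 2 was the higher one, 2.45-fold in siCtrl, and siCtrl and siCdc73 overlapped across batches but not within them. Supt6h rose after siCdc73 by 1.10 (SE 0.27, edgeR adjusted p = 0.00865), 2.14-fold, with 1.23 and 0.97 within batches. The call was lost without either siCtrl library (1.06 and 1.14, edgeR adjusted p = 0.0786 and 0.071) and without the siCdc73 library of batch 1 (0.95, edgeR adjusted p = 0.0989). After siPaf1 the value was 0.63 (SE 0.27, edgeR adjusted p = 0.112), and in siSki8 -0.01 (SE 0.34, edgeR adjusted p = 1). Its main site, 562 nt past the coding sequence with AATAAA beginning 22 nt before its end, took 85.9% to 95.9% of the reads in every library, and none of its 3 sites passed the test of use.

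The FACT subunits did not pass in any comparison. Supt16h (chr14:52780094-52816914, minus strand) stood between 42.5 and 82.9 CPM, with 50.6 and 82.9 in siCtrl, 42.5 and 74.8 in siPaf1, 50.6 and 63.2 in siCdc73 and 71.2 in siSki8. The groups overlapped, and its values were -0.20 after both siPaf1 (SE 0.27, edgeR adjusted p = 0.656) and siCdc73 (SE 0.28, edgeR adjusted p = 0.662). Its 2 main sites lie 25 nt apart, and the upstream one took 45.1% and 36.5% of the pair in siCtrl, 46.7% and 35.8% in siPaf1 and 41.7% and 38.6% in siCdc73.

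Ssrp1 (chr2:84877355-84887266, plus strand), the other FACT subunit, had 234168 PASS reads at 1 site. It stood at 9008 and 2596 CPM in siCtrl, 5207 and 2006 in siPaf1, 7083 and 1974 in siCdc73 and 1771 in siSki8. Each knockdown library lay below the siCtrl library of its batch, while the siCtrl libraries differed 3.47-fold between batches. The values were -0.58 (SE 0.26, edgeR adjusted p = 0.129) after siPaf1, -0.37 (SE 0.26, edgeR adjusted p = 0.326) after siCdc73 and -0.61 (SE 0.34, edgeR adjusted p = 0.525) in siSki8. Without the siPaf1 library of batch 2, Ssrp1 passed after siPaf1 (-0.80, edgeR adjusted p = 0.0375).

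Cdk12 (chr11:98064373-98139818, plus strand), the PolII tail kinase, was read at low depth, at 8 and 50 PASS reads in siCtrl, 8 and 36 in siPaf1, 35 and 143 in siCdc73 and 41 in siSki8, or 1.20 and 4.73, 1.03 and 2.38, 7.60 and 10.2, and 4.66 CPM. Both siCdc73 libraries were the highest of the 7. Cdk12 rose after siCdc73 by 1.64 (SE 0.51, edgeR adjusted p = 0.0229), 3.13-fold, with 2.47 and 1.07 within batches. The call was lost without the siCtrl library of batch 1 (1.20, edgeR adjusted p = 0.218), without the siCdc73 library of batch 1 (1.20, edgeR adjusted p = 0.203), and by DESeq2 with batch (1.84, adjusted p = 0.0712). After siPaf1 it gave -0.67 (SE 0.54, edgeR adjusted p = 0.366), and siPaf1 lay below siCdc73 with a log2 difference of -2.32 (SE 0.53, edgeR adjusted p = 0.00655), a call that held in each of the 6 fits without 1 library, with -2.33 (edgeR adjusted p = 0.0121) where the siPaf1 library of batch 2 was left out.

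Cdk12 was also the member with most sites, 15 on the sense strand, of which 7 were intronic and 1 in an internal exon, and these 8 upstream sites had 2 to 17 reads each. Its proximal and distal sites, 662 and 3152 nt past the coding sequence, lie beyond the end of the coding transcript used here but within the span of the gene. They gave no call in the comparison of the pair (2.36, SE 1.79, edgeR adjusted p = 0.296 after siPaf1, and 3.07, SE 1.68, edgeR adjusted p = 0.278 after siCdc73). Reads of the proximal site were 5 and 3 in siCtrl, 7 and 18 in siPaf1, 23 and 74 in siCdc73 and 12 in siSki8, and of the distal site 0 and 38, 0 and 12, 2 and 26, and 26. In batch 1 the siCtrl and siPaf1 totals were 8 reads each, so shifts were not detectable at this depth there. Cdk12 was the only member in the comparison of upstream with 3'-most exon sites, where siCdc73 gave -1.06 (SE 1.82, edgeR adjusted p = 0.774).

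Tcea1 (chr1:4847775-4887987, plus strand), the gene of TFIIS, had 44 sense reads in all 7 libraries, 4 and 12 in siCtrl, 5 and 14 in siPaf1, 0 and 4 in siCdc73 and 5 in siSki8. They were spread over 6 sites. No comparison passed (edgeR adjusted p = 0.301 after siCdc73 and 0.965 after siPaf1), and its level was too low for a statement of direction.

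Over the 10 genes in 3'READS, 1 was called higher after siPaf1 (Hexim1) and 4 after siCdc73 (Hexim1, Cdk9, Supt6h and Cdk12), and 0 were called lower after either. Of all genes tested, 9.74% were called higher and 9.08% lower after siPaf1, and 10.8% higher and 11.8% lower after siCdc73, so the siPaf1 count is near that background. The median log2 change of the members was 0.08 after siPaf1 and 0.41 after siCdc73, beside 0.08 and -0.02 for all genes. Both knockdowns were set against the same siCtrl libraries. Within batches, 6 members were higher and 2 lower than siCtrl in both batches after siCdc73, and 4 were higher and 4 lower after siPaf1. The 2 lower after siCdc73 were Ssrp1 and Tcea1, and Tcea1 had too few reads for a statement of direction. In siSki8 no member was called, with 0.151% of genes called. For siPaf1 against siCdc73, 2 members were called lower (Hexim1 and Cdk12), with 6.3% of genes called lower.

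For pA site choice, 0 of 1 members passed in upstream against 3'-most exon sites, with 23.2%, 22.7% and 0.0566% of 1766 genes called after siPaf1, siCdc73 and siSki8, and 2.21% and 3.62% after siPaf1 and siCdc73 in the fit without batch. In proximal against distal sites, 0 of 3 members (Ccnt2, Cdk12 and Supt16h) passed, with 6.55%, 4.29% and 0.0657% of 4567 genes called. Among the 17 member sites, of 6 genes, that entered the test of single sites, 1 was called after siPaf1, 2 after siCdc73 and 0 after siSki8, all of Ccnt1, with 6.15%, 5.71% and 0.00935% of 21385 sites called, and 0% and 0.00468% for siPaf1 and siCdc73 without batch. The siPaf1 count is near that background. Sites of 1 gene share its reads, so these counts are not independent. The 2 siCdc73 calls are a rise and a fall within the same Ccnt1 reads.

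A wider list of 28 further elongation genes was read alongside, of which 27 were tested in 3'READS and 15 in RNA-seq. After siCdc73, 3 rose and 2 fell in 3'READS, with a median of 0.06, and 2 rose and 3 fell in RNA-seq, with a median of 0.11 beside -0.02 for all genes. Of all genes, 10.8% were called higher and 11.8% lower in 3'READS and 19.4% and 20.5% in RNA-seq, so the list counts lie near or below that background. Supt4a, which the 3'READS table lists as Supt4h1, the small subunit of DSIF and partner of Supt5h, has a near-identical copy in the mouse that may share its reads. It rose by 1.28 in RNA-seq (SE 0.30, edgeR adjusted p = 0.001) and by 1.33 in 3'READS (SE 0.29, edgeR adjusted p = 0.0041). Mepce, which caps and keeps 7SK, rose by 0.87 in RNA-seq (SE 0.24, edgeR adjusted p = 0.00424), while Larp7, which binds the 3′ end of 7SK, fell by 0.60 (SE 0.24, edgeR adjusted p = 0.0413). Tcea3, a paralog of Tcea1, fell by 2.08 in RNA-seq (SE 0.33, edgeR adjusted p = 7.78e-06) and by 1.49 in 3'READS (SE 0.45, edgeR adjusted p = 0.0206). The NELF subunit Nelfe, listed as Rdbp in 3'READS, fell by 0.61 (SE 0.23, edgeR adjusted p = 0.0336) and by 0.78 (SE 0.27, edgeR adjusted p = 0.0493).

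Fits of these lists without 1 library were added after the data had been seen. After siCdc73, Tcea3 in RNA-seq held in each of the 6. Tcea3 in 3'READS was lost without the siCtrl or the siCdc73 library of batch 1 (-0.49 and -1.40, edgeR adjusted p = 0.673 and 0.0768). Supt4a was lost without the siCdc73 library of batch 2 (0.89, edgeR adjusted p = 0.147), and Supt4h1 without that of batch 1 (1.06, edgeR adjusted p = 0.0618). Mepce was lost without the siCtrl or the siCdc73 library of batch 2 (0.66 and 0.72, edgeR adjusted p = 0.179 and 0.145). Larp7 and Rdbp were each lost without any 1 of the siCtrl and siCdc73 libraries, with values of -0.82 to -0.35 and -0.89 to -0.67, and Nelfe without the siCtrl library of batch 1 or either siCdc73 library (-0.29, -0.44 and -0.75).

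In 3'READS after siCdc73, Eaf2, which binds ELL, rose by 1.24 (SE 0.42, edgeR adjusted p = 0.0386), and Mllt1, of the super elongation complex, by 1.02 (SE 0.36, edgeR adjusted p = 0.0478). Both were lost without the siCtrl library of batch 2 (0.95 and 0.53, edgeR adjusted p = 0.388 and 0.495), Eaf2 also without the siCtrl library of batch 1 or the siCdc73 library of batch 2 (1.44 and 0.77, edgeR adjusted p = 0.0689 and 0.499), and Mllt1 without the siCdc73 library of batch 1 (0.83, edgeR adjusted p = 0.188). After siPaf1, Mllt1 was the 1 gene of the list called in 3'READS (1.18, SE 0.36, edgeR adjusted p = 0.0311), where 9.74% of all genes were called higher. This call was lost without the siPaf1 library of batch 2, the one that stood apart (0.43, edgeR adjusted p = 0.457), and without the siCtrl library of batch 2 (0.62, edgeR adjusted p = 0.51). In RNA-seq 3 of 15 rose after siPaf1, with 16.3% of all genes called higher and 16.2% lower, namely elongin C (Tceb1, 1.26, SE 0.24, edgeR adjusted p = 0.000156), Aff4, a scaffold of the super elongation complex (0.76, SE 0.27, edgeR adjusted p = 0.0276), and Ccnk, the cyclin of Cdk12 (0.66, SE 0.24, edgeR adjusted p = 0.0349). Tceb1 held in each of the 6 fits without 1 library. Aff4 was lost without either siCtrl library (0.79 and 0.76, edgeR adjusted p = 0.102 and 0.173) or the siPaf1 library of batch 2 (0.20, edgeR adjusted p = 0.584), and Ccnk held only without the siPaf1 library of batch 1, with values of 0.46 to 0.88 over the 6. With all 7 libraries, no gene of the list was called in siSki8 in either assay. Calls in siSki8 appeared in RNA-seq without either siPaf1 library, and in 3'READS without the siCtrl library of batch 2.

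Of the 12 PolII subunit genes, 2 were called higher after siPaf1 and 3 after siCdc73 in 3'READS, and 1 and 4 of the 8 tested in RNA-seq, with none lower. Of all genes, 9.74% and 10.8% were called higher in 3'READS and 16.3% and 19.4% in RNA-seq, so 1 of 8 after siPaf1 is not above that background. After siCdc73, Polr2b rose by 1.87 in 3'READS (SE 0.30, edgeR adjusted p = 0.000517), and Polr2d rose by 1.55 in 3'READS (SE 0.28, edgeR adjusted p = 0.00117) and by 1.65 in RNA-seq (SE 0.24, edgeR adjusted p = 2.6e-06). Polr2g rose by 1.67 in RNA-seq (SE 0.24, edgeR adjusted p = 2.52e-06) and by 1.38 in 3'READS (SE 0.37, edgeR adjusted p = 0.0134), and Polr2h by 0.88 in RNA-seq (SE 0.26, edgeR adjusted p = 0.00689). Polr2b, Polr2d and, in RNA-seq, Polr2g held in each of the 6 fits without 1 library. Polr2g in 3'READS was lost without the siCtrl library of batch 1 or the siCdc73 library of batch 2 (1.13 and 0.82, edgeR adjusted p = 0.0715 and 0.247), and Polr2h without either siCtrl library or the siCdc73 library of batch 2 (0.94, 0.84 and 0.75, edgeR adjusted p = 0.0565, 0.108 and 0.18). After siPaf1, Polr2b rose by 1.10 in 3'READS (SE 0.30, edgeR adjusted p = 0.0162), and Polr2d by 0.97 in 3'READS (SE 0.28, edgeR adjusted p = 0.0214) and 0.86 in RNA-seq (SE 0.23, edgeR adjusted p = 0.00542). In 3'READS both passed without the siPaf1 library of batch 2 (1.27 and 0.95, edgeR adjusted p = 0.00945 and 0.0468), but both were lost without either siCtrl library (edgeR adjusted p = 0.153 and 0.088 for Polr2b, and 0.128 and 0.211 for Polr2d), and Polr2d in RNA-seq was lost without that of batch 2 (0.55, edgeR adjusted p = 0.262).

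In the 1 siSki8 library of RNA-seq, Polr2j had a value of 1.03 (SE 0.31, edgeR adjusted p = 0.0446). This library has no replicate and borrows the spread of the other groups, and the value did not pass without batch (edgeR adjusted p = 0.781) or without the siCtrl library of batch 2 or either siCdc73 library (0.68, 0.92 and 0.94, edgeR adjusted p = 0.466, 0.174 and 0.167). In siSki8, 1 of the 8 PolII subunit genes tested was called in RNA-seq and 0 of the 12 in 3'READS. Of all genes, 5.43% and 0.151% were called. In 3'READS 10 of the 12 were above 0 in this 1 library. The list median in 3'READS was 0.17 after siPaf1, 0.52 after siCdc73 and 0.50 in siSki8, beside 0.08, -0.02 and -0.06 for all genes, and without the siPaf1 library of batch 2 the first was 0.67. In RNA-seq it was 0.30, 0.63 and 0.37, beside 0.02, -0.02 and 0.02 for all genes.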

How the data were processed

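RNA-seq and 3'READS libraries of C2C12 myoblasts were grouped by GEO's labels. According to the study's methods and the submitters' processing notes, reads were aligned by the authors with Bowtie2 against mm9 (version not given in the sources used here), unique reads were kept, and raw counts were deposited, per RefSeq coding region in RNA-seq and per pA site (PASS reads) in 3'READS. RPKM values deposited by the authors were used only for the levels of the cyclins. RNA-seq took the transcript of each gene with the highest mean count, and 3'READS summed the sense sites of each gene. Paf1C ChIP-seq was not used here.

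Counts were tested in R 4.3.3 with edgeR 4.0.16 (TMM, its filter on low counts, quasi-likelihood test, prior count 2), with all 7 libraries of an assay in 1 fit and Benjamini-Hochberg adjustment over all genes or sites at 0.05. The siSki8 library, with no replicate, was assumed to vary like the other groups. DESeq2 1.42.0 was an alternative. The pA site tests used the isoform by knockdown interaction with 1 coefficient per library, isoform pairs with 20 or more reads per library on average, after removal of sites that hold under 5% of a gene's reads, and single sites with an average of 5 or more reads and 1% of the gene's reads in some library. SEs are those of the estimates before the prior count. The study's methods use no batch term, so the fit on groups alone was the planned primary test. The labels give the replicate numbers as batches, and the differences between batches correlated between groups with r of 0.620, 0.748 and 0.633 in RNA-seq and 0.433, 0.610 and 0.432 in 3'READS, so the fit with batch is given where it changes a call.

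The tests were checked before use on simulated data with known changes. Their batch difference was taken from the real libraries and was the same in every group. The fit on groups alone recovered 0 of 200 planted changes in each kind of test. In the real data it did call 2.21% and 3.62% of genes for upstream against 3'-most exon sites after siPaf1 and siCdc73. The simulation thus did not match the real data in that test. The fit with batch recovered 83.0% to 99.5%, with 8 to 16 wrong calls. Planted changes were log2 2 up or down in gene counts, larger than many of the gene calls, and 8-fold in odds at sites. A batch difference common to all groups is what this fit assumes. Its recovery therefore does not measure how it does where real batch differences vary between groups. The simulated spread of gene counts was set below that of the real 3'READS libraries. A count of 0 in the fit on groups alone therefore does not show that genes did not change. The members, the wider lists and their tests were chosen with earlier results of these data known. Named genes were the 10 members, the siRNA targets and, of the wider lists, at most 3 in each direction per assay and knockdown with the smallest adjusted p. Named sites were the 2 most used of the 3'-most exon and each tested intronic one, and the distal Ccnt2 site was added after its values were seen. Sequences were read from the NCBIM37 (mm9) genome and positions set against GENCODE vM1, in the coding transcript with the longest coding sequence. Alternatives were library size alone, no filter, sums over transcripts, the study's Fisher rule (p under 0.01 and over 1.4-fold) on pooled reads, at least 50 reads, all sites kept, and each replicated library left out, which for the wider lists was added after the data had been seen.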

Additional observations from a re-analysis of the deposited data

How the results depend on the processing

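In the fit without batch 0 members were called in any comparison, a count that stayed at 0 under library size alone, DESeq2, no filter, sums over transcripts, at least 50 reads and all sites kept, and with each replicated library left out. The replicate block raised it in RNA-seq to 1 (siPaf1) and 2 (siCdc73), in 3'READS to 1 (siPaf1), 4 (siCdc73) and 2 (siPaf1 against siCdc73), and in site usage to 1 (siPaf1) and 2 (siCdc73), and changed no other member's call. Fisher's rule on pooled reads, which ignores the spread between libraries, gave 2 in RNA-seq for each of siPaf1, siCdc73 and siSki8 and 1 for siPaf1 against siCdc73, and 5, 6, 3 and 4 in 3'READS. Pooling set the 1 siSki8 library, of batch 2, against siCtrl reads of both batches. Batch and knockdown cannot be told apart in those siSki8 counts. The RNA-seq calls of the rule in siSki8 were lower than siCtrl, whereas within batch 2 Ccnt1 and Ccnt2 gave 0.27 and 0.02. With batch in the fit, library size alone and no filter each gave 2 for siPaf1 in both assays, and DESeq2 gave 2 in 3'READS. Leaving out 1 library with batch gave 0 to 2 for siPaf1 in RNA-seq, 3'READS and site usage, 0 to 2 for siCdc73 in RNA-seq, 2 to 4 in 3'READS and 0 to 4 in site usage, 0 to 1 for siSki8 in 3'READS, 0 to 1 in proximal against distal sites after siPaf1, and for siPaf1 against siCdc73 0 to 1 in RNA-seq and 2 to 3 in 3'READS. Of 2041 log2 values of single genes or sites under an alternative, 181 changed sign, all with no call in either setting, and 0 changed sign where a call was made. Fisher's rule was set only against the fit without batch here, so its differences in sign from the fit with batch are not counted. The causes were not tested. Low depth limits Cdk12 and Tcea1 most.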
